A study of Mus musculus with 25 samples.

Results

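The TGF-beta, BMP and activin pathway was described across the pituitary RNA-seq samples of shRb mice, whose doxycycline (dox)-inducible transgene encodes GFP and an shRNA that targets Rb. The members were 45 gene symbols, looked up by name in the deposited tables. The long-term table held 44 of them among its 15315 genes and the short-term table held 40 among its 14007. Grem1 was in neither table, and Bmp2, Bmp5, Acvr1c and Fst were in the long-term table only. All 25 mice carried the dox-responsive shRNA at the Col1a1 locus and the reverse tetracycline transactivator rtTA at Rosa26. Rosa26 is active in most tissues, so knock-down was not limited to the pituitary, and the line came from a single targeted embryonic stem cell clone. The long-term experiment compared 3 mice after 6 weeks of dox (6w+dox, all female), 4 mice after 12 weeks of dox (12w+dox, 2 of each sex) and 5 mice given dox for 6 weeks and then kept 6 weeks without it (12w-res, 2 male and 3 female). The short-term experiment compared 3 male mice after 16 weeks of dox (16w+dox) with mice from which dox was then withdrawn for 1 day (1d-dox, 4 female), 3 days (3d-dox, 3 male) or 5 days (5d-dox, 3 female). Dox was started in young adults, the age of each sampled mouse is not given in the sources used here, and sucrose was in the dox water but not in the water after withdrawal. Per the labels, the long-term libraries were made from polyA-selected RNA and the short-term libraries after rRNA depletion, so levels are compared only within an experiment.

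Cells read TGF-beta family signals through ligands that bring together type II and type I receptor kinases. The type I receptors phosphorylate receptor SMADs, which join SMAD4 and enter the nucleus. SMAD2 and SMAD3 serve TGF-beta and activin, and SMAD1, SMAD5 and SMAD9 serve BMPs. Secreted binders such as noggin, chordin and follistatin hold ligands away from receptors, SMAD6 and SMAD7 damp the response, and Id genes are classic BMP targets. In the pituitary, activin B and follistatin tune gonadotroph output, and BMP4 and noggin act in the formation of the gland and on its Pomc-expressing cells.

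Values are FPM, reads per gene scaled by size factors that the authors computed. The libraries held 19066053 to 28968476 reads on genes in the long-term experiment and 9573101 to 13036900 in the short-term experiment. Rb1 was 1.86 to 5.09 FPM in the 7 mice on dox of the long-term experiment and 16.1 to 20.3 FPM in 12w-res. In the short-term experiment GFP was 1025 to 1360 FPM at 16w+dox and 9.34 to 15.2 FPM at 5d-dox, while Rb1 lay between 3.47 and 6.03 FPM in all 13 mice. Pomc, the hormone precursor of melanotrophs, accounted for 39.1% to 43.2% of reads on genes in the 12w-res mice, against 12.9% to 23.0% (12w+dox) and 13.6% to 32.2% (6w+dox). Fold changes are limma estimates on log2(FPM + 0.5), which understate the change of low genes. The adjusted p is Benjamini-Hochberg over all genes tested, and genes are named as called where the adjusted p was under 0.05 and the log2 fold change was above 1 or below -1. The samples are bulk tissue, so fewer cells of a type and less RNA per cell cannot be told apart.

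Members with contrasting behaviour are shown with the sequence around their start: Fstl1, the called member that was higher in 12w-res than in both dox groups by the largest log2 fold change, Id3, a BMP target that was also higher there, and Smad5, which was lower in 12w-res than at 12w+dox. Each window runs from 250 bases before to 50 bases after the RefSeq gene start (GRCm38.p6, plus strand). Capitals mark GGCGCC, a GC-rich element known from BMP-responsive SMAD sites, and GTCTG or its reverse complement CAGAC, which contain the GTCT core that SMAD3 and SMAD4 can bind. The windows are chr16:37776805-37777104 for Fstl1, which held neither motif, chr4:136143572-136143871 for Id3 and chr13:56702760-56703059 for Smad5, the window at the outermost start of that gene.
Fstl1: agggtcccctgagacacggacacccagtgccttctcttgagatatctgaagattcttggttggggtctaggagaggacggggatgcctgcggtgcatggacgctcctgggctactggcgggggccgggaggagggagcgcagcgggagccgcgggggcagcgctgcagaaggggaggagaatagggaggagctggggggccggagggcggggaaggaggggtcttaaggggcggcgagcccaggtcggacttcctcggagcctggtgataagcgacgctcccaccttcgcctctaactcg
Id3: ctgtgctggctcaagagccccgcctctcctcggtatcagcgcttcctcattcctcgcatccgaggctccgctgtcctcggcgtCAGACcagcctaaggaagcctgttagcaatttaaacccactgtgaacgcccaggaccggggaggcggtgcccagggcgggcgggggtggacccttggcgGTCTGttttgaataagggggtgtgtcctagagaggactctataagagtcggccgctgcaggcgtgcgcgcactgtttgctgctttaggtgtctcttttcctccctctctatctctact
Smad5: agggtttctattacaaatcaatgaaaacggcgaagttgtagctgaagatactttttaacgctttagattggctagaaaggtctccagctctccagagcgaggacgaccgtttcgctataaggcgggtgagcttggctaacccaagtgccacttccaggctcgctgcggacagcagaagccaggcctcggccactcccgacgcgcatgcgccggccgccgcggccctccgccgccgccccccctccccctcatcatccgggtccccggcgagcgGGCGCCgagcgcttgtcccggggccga
RefSeq windows were at hand for 31 of the 45 listed genes. GGCGCC, searched on both strands, was in 11 of the 31 (35.5%), and in 13.4% of the 27025 genes with a window. Those 27025 were not limited to genes measured here, so they are not a like background for the members. GTCTG was in 15 of the 31 (48.4%) and in 53.2% of all genes. Of the members with a window that were lower in 12w-res than at 12w+dox at an adjusted p under 0.05, 3 of 4 held GGCGCC (Smad5, Acvr1b and Bmpr1a), and of those that were higher 1 of 9 did. GTCTG was in 2 of the same 4 and in 4 of the same 9. These sets are small and were picked by the same data, so the counts are not a test. A match is a description of these letters, not a binding site. In the same annotation other genes overlap the loci of Tgfb2, Bmp4, Inhba, Acvr1c, Tgfbr2, Fstl1 and Fstl3 among the called members, and reads that such genes share cannot be told apart; none overlaps Nog, Bmp2, Acvrl1 or Smad6.

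Between 6 and 12 weeks of dox, noggin, Bmp4, Bmp2, Smad6 and Acvr1c fell, while the SMAD transducers Smad2, Smad4 and Smad5 rose. This comparison follows the glands as the tumors advance. Of the 44 members, 0 were called higher and 5 lower, against 3.15% and 4.04% of all 15315 genes. With libraries scaled by their totals of reads, which moved the median of all genes by 0.29 on the log2 scale, 3 were called higher (Acvr1b, Fstl3 and Smad5, at 1.20, 1.105 and 1.07) and 4 lower (Nog, Bmp4, Bmp2 and Acvr1c). The share of all genes called with totals of reads was not computed. At an adjusted p under 0.05 without the fold limit, 5 were higher and 9 lower, against 10.4% and 12% of all genes. With totals of reads all 5 higher ones and 4 of the 9 lower ones passed this limit. Acvr1, Bambi, Smad6, Tgfbi and Tgfbr2 did not. The groups did not overlap for 13 of the members (29.5%), against 25.2% of all genes. The median log2 fold change was -0.03 over the members and -0.01 over all genes. The plot of fold changes in the long-term experiment gives every member.

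**Figure D1:**
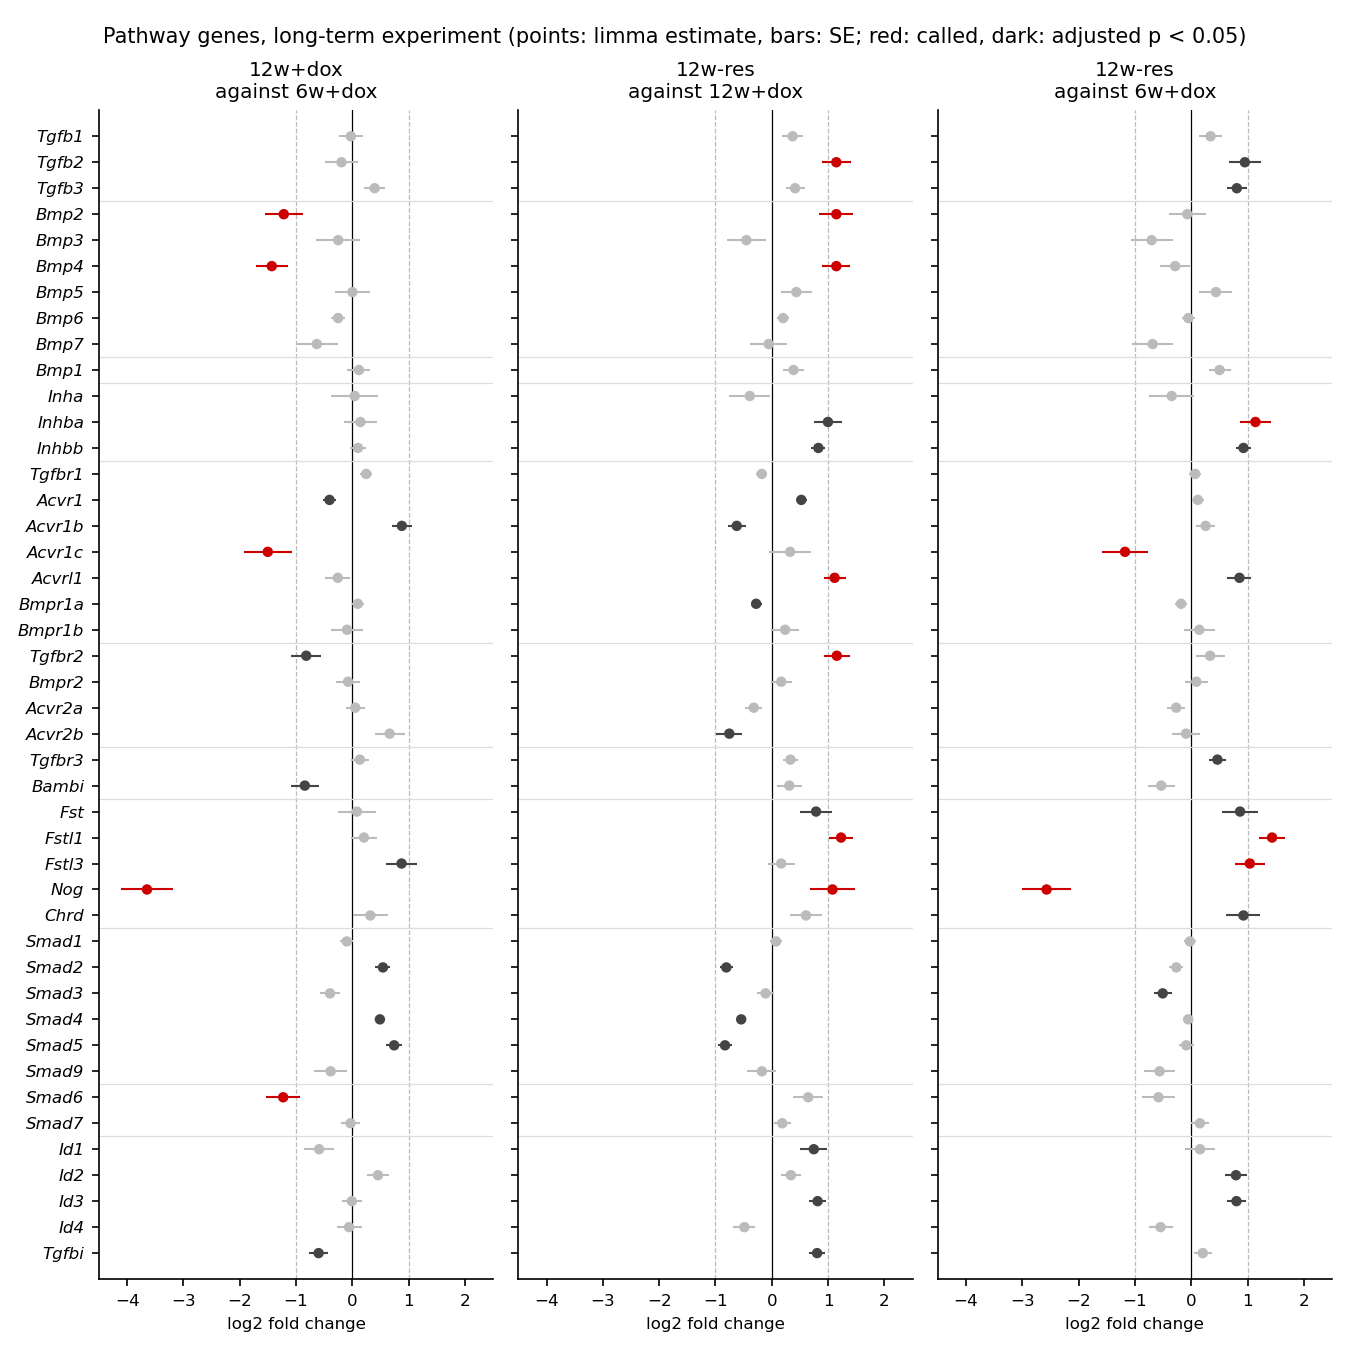
Log2 fold change of each of the 44 members in the 3 comparisons of the long-term experiment, ordered by role from ligands at the top to target genes at the bottom. Points are limma estimates on log2(FPM + 0.5), bars their SE, and dashed lines the limits of -1 and 1. Red points are called genes. The first panel holds 5 red points, all below 0, the second 7, all above 0, and the third 3 above and 2 below 0. With totals of reads in place of the size factors, 3 members were called higher and 4 lower in the first panel, 0 and 6 in the second and 1 and 2 in the third, and Acvr1 changed direction in the second. The share of all genes called that way was not computed.

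Noggin (Nog, chr11:89300638-89302559), a secreted BMP antagonist, showed the largest fold change of the members. It was at 8.91, 25.1 and 25.9 FPM in the 6w+dox mice and at 2.20, 0.291, 0.585 and 1.56 FPM in the 12w+dox mice. The groups did not overlap, and the 12w+dox level was 12.5-fold lower (log2 fold change -3.65, SE 0.46, adjusted p 3.06e-04). In 12w-res it was at 1.72, 5.02, 1.73, 2.89 and 2.71 FPM, which is below every 6w+dox mouse (log2 fold change -2.57, SE 0.44, adjusted p 5.84e-04). Per kilobase of transcript, the mean level of Nog at 6w+dox was 11.8 FPM, and it was 0.684 at 12w+dox. Other cell populations differed between the same groups. The summed level of the 4 neural lobe markers (Avp, Oxt, Rax and Lhx2) was 39.3 to 122 FPM at 6w+dox, 4.33 to 8.06 at 12w+dox and 2.91 to 7.12 in 12w-res, and all 4 were called lower at 12w+dox. The 4 measured markers of stem and folliculostellate cells summed to 153 to 176, 69.1 to 95.7 and 68.9 to 102 FPM in the same order, and the 5 markers of somatotrophs, lactotrophs and thyrotrophs to 56830 to 92020, 1154 to 12505 and 16077 to 30475 FPM. A sum leans on its most abundant gene. Of the 4 stem and folliculostellate markers, 2 were called lower at 12w+dox than at 6w+dox. In 12w-res against 12w+dox, 3 of them lay above 0, with 1 called higher, and 1 lay below 0. The part of these populations in the level of Nog was not tested.

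The BMP ligands Bmp2 and Bmp4 moved alike. Bmp4, a ligand that noggin binds, was at 3.73, 2.14 and 2.07 FPM at 6w+dox, at 1.05, 0.408, 0.462 and 0.726 at 12w+dox and at 2.60, 1.27, 2.87, 1.77 and 1.88 in 12w-res. The 12w+dox mice all lay below both other groups. Bmp4 was lower at 12w+dox than at 6w+dox (log2 fold change -1.43, SE 0.28, adjusted p 0.00402) and higher in 12w-res than at 12w+dox (1.15, SE 0.25, adjusted p 0.00269). Bmp2 was at 1.22, 2.36 and 2.48 FPM at 6w+dox, at 1.33, 0.233, 0.370 and 0.559 at 12w+dox and at 2.44, 0.898, 2.003, 1.83 and 2.38 in 12w-res. Its groups overlapped through the first 12w+dox mouse. Its fall from 6w+dox to 12w+dox was called (log2 fold change -1.22, SE 0.34, adjusted p 0.0220), but not without 6w+dox replicate 2 (-1.11, adjusted p 0.0922) or without 12w+dox replicate 2 (-1.04, adjusted p 0.0613). Its rise in 12w-res over 12w+dox was called as well (1.15, SE 0.30, adjusted p 0.00835), and without 12w+dox replicate 2 it was 0.97 (adjusted p 0.0327). With edgeR or DESeq2 on the recovered reads, both genes stayed called in both comparisons, while among females alone (fewer mice) the adjusted p of Bmp4 was 0.0509 and 0.0553 and that of Bmp2 0.134 and 0.0890. Bmp6, the most abundant BMP ligand per kilobase (8.40 to 10.1 FPM over the group means), was at 28.0 to 40.4 FPM in all 12 mice. Bmp3, Bmp5 and Bmp7 did not pass an adjusted p of 0.05 in any long-term comparison, nor did Bmp1, a procollagen protease that also cleaves chordin and that the name places in the BMP family.

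Among the TGF-beta ligands, Tgfb2 rose in 12w-res. It was at 2.56, 2.89 and 3.23 FPM at 6w+dox, at 4.43, 2.07, 1.36 and 2.76 at 12w+dox and at 8.32, 6.08, 6.92, 5.25 and 4.37 in 12w-res. One 12w+dox mouse, replicate 1, reached the lowest 12w-res value. The log2 fold change was 1.15 against 12w+dox (SE 0.26, adjusted p 0.00341) and 0.95 against 6w+dox (SE 0.28, adjusted p 0.0184). In the first of these comparisons it was 0.92 without 12w+dox replicate 3 (adjusted p 0.0125), and among females alone 0.73 (adjusted p 0.156). In the second, the adjusted p was 0.0596 without 6w+dox replicate 1, 0.0548 without 6w+dox replicate 2 and 0.114 with totals of reads. Tgfb3 was higher in 12w-res than at 6w+dox (log2 fold change 0.81, SE 0.18, adjusted p 0.00377), with 25.3 to 42.2 FPM against 18.8 to 19.9, and the 12w+dox mice spanned 19.5 to 33.0. Tgfb1 ranged from 12.7 to 31.0 FPM and passed in no long-term comparison. Per kilobase, Tgfb3 and Tgfb1 stood well above Tgfb2, at 5.77 to 10.4, 6.75 to 8.78 and 0.519 to 1.21 FPM over the group means.

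**Figure D2:**
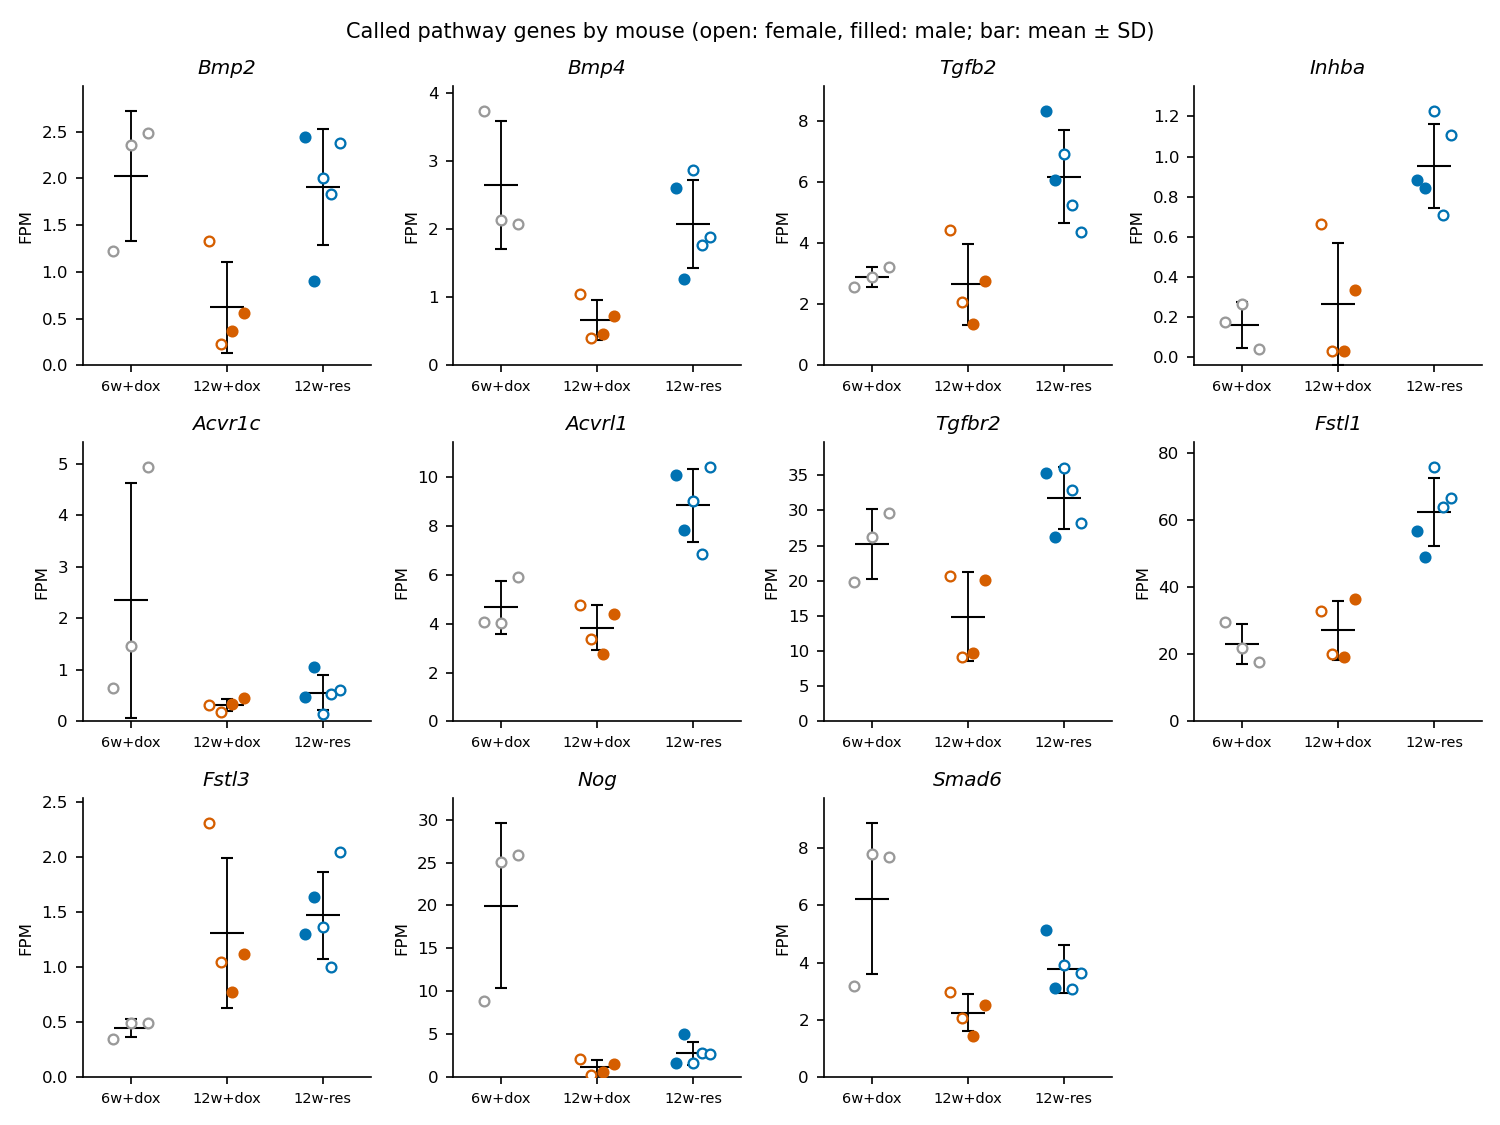
FPM of the 11 members called in any long-term comparison, with 1 point per mouse, open for females and filled for males, and bars for the mean ± SD of each group. Nog lay between 8.91 and 25.9 FPM in the 3 mice at 6w+dox and at or below 5.02 FPM in the other 9 mice, and Fstl1 lay above 49 FPM in 12w-res only.

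The activin and inhibin subunits Inhba and Inhbb were higher in 12w-res than in either dox group. Inhbb, which encodes the beta subunit of activin B and inhibin B, was at 13.2, 15.6 and 18.4 FPM at 6w+dox, at 18.2, 14.98, 15.4 and 18.7 at 12w+dox and at 31.2, 31.2, 30.3, 31.9 and 26.3 in 12w-res. The lowest 12w-res mouse lay above all 7 dox mice, and the log2 fold change was 0.83 against 12w+dox (SE 0.13, adjusted p 1.87e-04) and 0.93 against 6w+dox (SE 0.14, adjusted p 1.70e-04). With totals of reads these were 0.18 (adjusted p 0.395) and 0.60 (adjusted p 0.0285). Inhba, which encodes the beta subunit of activin A, was near the detection limit on dox, at 0.175, 0.267 and 0.0414 FPM at 6w+dox and 0.663, 0.0291, 0.0308 and 0.335 at 12w+dox, where the lowest 2 values are 1 read each. In 12w-res it was at 0.884, 0.845, 1.23, 0.708 and 1.11 FPM. It was called against 6w+dox (log2 fold change 1.14, SE 0.28, adjusted p 0.00589), and against 12w+dox its log2 fold change of 1.00 lay just under the fold limit (SE 0.25, adjusted p 0.00695). Inha, the alpha subunit that turns a beta subunit into inhibin, was at 6.86 to 39.3 FPM and passed in no comparison. The 5 gonadotroph markers, from cells that make activin B and inhibin, summed to 1870 to 2190 FPM at 6w+dox, 65.5 to 1124 at 12w+dox and 408 to 4540 in 12w-res, overlapping between the last 2 groups. All 5 lay below 0 at 12w+dox against 6w+dox, with 1 called. In 12w-res against 12w+dox, 3 lay above 0 and 2 below, with 0 called.

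At 6 weeks after dox withdrawal, the called members were all on the higher side when compared with 12w+dox. This comparison sets mice in which Rb was allowed to return against mice of the same total time with Rb still knocked down. There were 7 members called higher and 0 lower, against 6.24% and 5.04% of all genes, and at an adjusted p under 0.05 alone 14 were higher and 6 lower, against 19.4% and 18.3%. The groups did not overlap for 17 of the 44 members (38.6%), against 34.5% of all genes. The median log2 fold change was 0.33 over the members and -0.004 over all genes. The split depends on the scaling. When libraries were scaled by their total reads rather than by the deposited size factors, the median of all genes in this comparison shifted by -0.61 on the log2 scale, and 0 members were called higher and 6 lower. Those 6 were Smad2, Smad4, Smad5, Acvr1b, Acvr2b and Id4, with log2 fold changes of -1.46, -1.20, -1.49, -1.27, -1.39 and -1.13. The share of all genes called under that scaling was not computed, so these counts have no background to be read against. Of the 14 members higher at an adjusted p under 0.05, 3 passed with totals of reads (Fstl1, Bmp4 and Inhba), and all 6 lower ones did. Changes below are relative to the size factors, under which the median of all genes was near 0.

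Fstl1, which encodes a secreted follistatin-like glycoprotein, rose most among the called members in this comparison. It was at 32.9, 19.99, 19.2 and 36.5 FPM at 12w+dox, at 56.8, 49.2, 75.8, 63.9 and 66.8 in 12w-res and at 29.6, 21.8 and 17.8 at 6w+dox. All 5 12w-res mice lay above all 7 dox mice, with a log2 fold change of 1.23 against 12w+dox (SE 0.21, adjusted p 4.36e-04) and 1.44 against 6w+dox (SE 0.22, adjusted p 2.81e-04). With totals of reads it was 0.58 against 12w+dox (adjusted p 0.0219) and 1.11 against 6w+dox (adjusted p 0.00145). Fstl3, which binds activins, was at 0.349, 0.490 and 0.497 FPM at 6w+dox, 2.30, 1.05, 0.770 and 1.12 at 12w+dox and 1.30, 1.64, 1.37, 1.00 and 2.04 in 12w-res. It was above 6w+dox at 12w+dox (log2 fold change 0.87, SE 0.27, adjusted p 0.0346) and in 12w-res (1.04, SE 0.26, adjusted p 0.00751). Leaving out 12w+dox replicate 1, 2 or 4 or 6w+dox replicate 1 or 2 took the adjusted p at 12w+dox to 0.0777, 0.0537, 0.0601, 0.105 and 0.0860, and without 12w-res replicate 5 or 6w+dox replicate 1 the log2 fold change in 12w-res was 0.94 and 0.97. Fst, the gene of follistatin, was at 0.728 to 1.49 FPM in 12w-res, with 0.175 to 0.872 in the 12w+dox mice and 0.0414 to 0.932 in the 6w+dox mice. It passed at an adjusted p of 0.0459 against 12w+dox (log2 fold change 0.79, SE 0.29) and 0.0477 against 6w+dox (0.87, SE 0.32). Each of these was above 0.05 in most fits with 1 mouse left out, up to 0.135 without 12w+dox replicate 2 and 0.209 without 6w+dox replicate 3. Chrd, the gene of the BMP antagonist chordin, was higher in 12w-res than at 6w+dox (0.93, SE 0.30, adjusted p 0.0293), but not in 5 of 8 fits with 1 mouse left out (0.60, adjusted p 0.157 without 6w+dox replicate 1), and its groups overlapped at 14.7 to 44.3 and 27.7 to 61.5 FPM. The rise of Nog over 12w+dox was called at an adjusted p of 0.0495 (1.08, SE 0.41), with overlapping groups, and lost that call in 6 of 9 fits with 1 mouse left out, where the adjusted p reached 0.161 without 12w+dox replicate 2, and in edgeR (0.0643).

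Receptor genes split into risers and fallers. Acvrl1, the gene of the ALK1 receptor best known from endothelial cells, was at 4.78, 3.38, 2.77 and 4.41 FPM at 12w+dox, at 10.1, 7.82, 9.01, 6.85 and 10.4 in 12w-res and at 4.08, 4.01 and 5.92 at 6w+dox. The 12w-res mice lay above both dox groups, with a log2 fold change of 1.12 against 12w+dox (SE 0.20, adjusted p 6.01e-04), or 0.99 without 12w+dox replicate 3, and of 0.86 against 6w+dox (SE 0.21, adjusted p 0.00700). Tgfbr2, the type II TGF-beta receptor, was at 20.7, 9.09, 9.67 and 20.1 FPM at 12w+dox, at 35.4, 26.2, 36.0, 32.9 and 28.2 in 12w-res and at 19.8, 26.2 and 29.6 at 6w+dox. It rose in 12w-res over 12w+dox (1.15, SE 0.24, adjusted p 0.00174), or by 0.96 and 0.99 without 12w+dox replicate 2 and 3, and it was lower at 12w+dox than at 6w+dox (-0.82, SE 0.27, adjusted p 0.0414), where leaving out 12w+dox replicate 2 or 3 or 6w+dox replicate 2 or 3 gave an adjusted p of 0.110, 0.0978, 0.128 and 0.0887. Acvr1, a type I receptor for BMPs, followed the same course within a narrower range, at 27.4 to 29.3 FPM at 6w+dox, 18.5 to 22.9 at 12w+dox and 27.2 to 31.8 in 12w-res. Its log2 fold change was -0.41 from 6w+dox to 12w+dox (SE 0.12, adjusted p 0.0230) and 0.52 in 12w-res over 12w+dox (SE 0.10, adjusted p 0.00120). With totals of reads these values were -0.08 (adjusted p 0.676) and -0.12 (adjusted p 0.413), and the fall of Tgfbr2 was -0.50 (adjusted p 0.239). The fall of Acvr1 also missed 0.05 without 12w+dox replicate 2 or 6w+dox replicate 1 or 2 (0.0539, 0.0709 and 0.0663).

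The activin type I receptor Acvr1b went the other way. It was at 11.9, 16.9 and 23.5 FPM at 6w+dox, at 32.8, 29.8, 30.2 and 32.8 at 12w+dox and at 20.3, 23.1, 18.4, 20.01 and 19.3 in 12w-res. The 12w+dox mice lay above both other groups (log2 fold change 0.88, SE 0.18, adjusted p 0.00455 against 6w+dox). 12w-res was below 12w+dox (-0.62, SE 0.16, adjusted p 0.00652). Acvr2b, an activin type II receptor, was lower in 12w-res than at 12w+dox (-0.75, SE 0.23, adjusted p 0.0205), with 10.2 to 15.8 against 15.6 to 25.3 FPM and an adjusted p of 0.0520 and 0.0717 without 12w+dox replicate 1 or 4. Bmpr1a, a BMP type I receptor and the receptor kinase with the highest level per kilobase (11.9 to 14.4 FPM over the group means), was lower by a small amount (-0.28, SE 0.10, adjusted p 0.0358), with 64.8 to 77.1 against 83.4 to 87.2 FPM, and its adjusted p was above 0.05 in 7 of 9 fits with 1 mouse left out. Acvr1c, the gene of ALK7, was at 0.640, 1.47 and 4.93 FPM at 6w+dox, at 0.314, 0.175, 0.339 and 0.447 at 12w+dox and at 0.468, 1.06, 0.137, 0.531 and 0.608 in 12w-res. Its high value came from 6w+dox replicate 3. The called log2 fold changes of -1.50 at 12w+dox (SE 0.42, adjusted p 0.0221) and -1.18 in 12w-res (SE 0.40, adjusted p 0.0371) were -0.88 (adjusted p 0.0605) and -0.56 (adjusted p 0.201) without that mouse. Without 12w+dox replicate 2 or 6w+dox replicate 2 the adjusted p at 12w+dox was 0.0542 and 0.0551, and in 12w-res the call was kept in 2 of 8 fits with 1 mouse left out. Tgfbr1, Bmpr1b, Bmpr2 and Acvr2a passed in no long-term comparison. Of the co-receptors, Tgfbr3 (betaglycan) was higher in 12w-res than at 6w+dox (0.47, SE 0.15, adjusted p 0.0301), at 64.8 to 82.1 against 47.4 to 58.0 FPM, and Bambi, a decoy receptor without a kinase, was lower at 12w+dox than at 6w+dox (-0.84, SE 0.25, adjusted p 0.0261), at 2.96 to 4.49 against 5.66 to 7.92 FPM. Both lost their side of 0.05 in several fits with 1 mouse left out, up to 0.118 for Tgfbr3 and 0.0971 for Bambi, each without 6w+dox replicate 1. With totals of reads the change was 0.14 for Tgfbr3 (adjusted p 0.600) and -0.56 for Bambi (adjusted p 0.111).

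The SMAD transducers were highest at 12w+dox and lower again in 12w-res for Smad2, Smad4 and Smad5, with a direction that held under every scaling. Smad5, a BMP SMAD, was at 65.0, 55.05 and 81.2 FPM at 6w+dox, at 102, 109, 101 and 136 at 12w+dox and at 58.5, 67.0, 62.7, 61.0 and 62.5 in 12w-res. Smad4, the SMAD shared by all branches, was at 53.4, 55.4 and 55.4 FPM, at 73.5, 79.2, 74.4 and 81.3 and at 53.0, 51.5, 51.9, 56.4 and 51.0 in the same order. Smad2, which serves TGF-beta and activin, was at 37.0, 35.2 and 33.7 FPM, at 48.6, 47.2, 53.5 and 57.9 and at 34.8, 33.0, 28.3, 26.3 and 25.1. For each of these genes the 4 mice at 12w+dox lay above all 8 others. From 6w+dox to 12w+dox the log2 fold change was 0.74 for Smad5 (SE 0.14, adjusted p 0.00281), 0.49 for Smad4 (SE 0.09, adjusted p 0.00290) and 0.54 for Smad2 (SE 0.13, adjusted p 0.0111, and 0.0761 among females alone). From 12w+dox to 12w-res it was -0.83 (SE 0.12, adjusted p 1.44e-04), -0.54 (SE 0.08, adjusted p 1.60e-04) and -0.81 (SE 0.12, adjusted p 1.21e-04). In 12w-res the levels of these transducers did not pass the test against 6w+dox. The summed level of 4 mitosis markers (Mki67, Top2a, Cdk1 and Ccnb1) was 248 to 359 FPM at 12w+dox and 19.0 to 26.1 in 12w-res, and 271 to 393 at 6w+dox. Its part in the SMAD levels was not tested. Smad3 was lower in 12w-res than at 6w+dox (-0.51, SE 0.16, adjusted p 0.0266), with 34.0 to 41.9 against 50.7 to 55.3 FPM, and its adjusted p was 0.0592, 0.0807 and 0.0549 without 12w-res replicate 4 or 6w+dox replicate 2 or 3. Smad1, at 28.0 to 38.2 FPM in all 12 mice, and Smad9, at 0.886 to 3.06 FPM, passed in none. Per kilobase Smad4 was the most abundant SMAD (15.6 to 22.8 FPM over the group means), followed by Smad5 (9.47 to 17.01).

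Of the inhibitory SMADs, Smad6, which acts mainly on the BMP branch, was at 3.20, 7.79 and 7.70 FPM at 6w+dox, at 2.97, 2.07, 1.45 and 2.54 at 12w+dox and at 5.15, 3.12, 3.91, 3.07 and 3.65 in 12w-res. The lowest 6w+dox mouse, replicate 1, lay just above the highest 12w+dox mouse, and the fall was called (log2 fold change -1.23, SE 0.30, adjusted p 0.0111), but not without 6w+dox replicate 2 (-1.03, adjusted p 0.0659), among females alone (-1.08, adjusted p 0.104) or with totals of reads (-0.97, adjusted p 0.0525). Smad7 was at 9.77 to 14.7 FPM in the 12 mice and passed in none. Among the target genes, Id3 was at 21.4, 19.998 and 13.6 FPM at 6w+dox, at 13.6, 18.2, 22.6 and 18.1 at 12w+dox and at 32.4, 31.8, 33.0, 28.4 and 33.7 in 12w-res, above both dox groups in every mouse. Its log2 fold change was 0.81 against 12w+dox (SE 0.16, adjusted p 0.00120) and 0.80 against 6w+dox (SE 0.17, adjusted p 0.00265), and with totals of reads 0.17 (adjusted p 0.362) and 0.48 (adjusted p 0.0401). Id1 was higher in 12w-res than at 12w+dox (0.75, SE 0.24, adjusted p 0.0243), at 12.997 to 21.2 against 9.21 to 9.67 FPM, and lost this without 12w+dox replicate 2 (adjusted p 0.0512) or 12w-res replicate 1 or 3 (0.0554 and 0.0616). Id2, the target gene with the highest level per kilobase (20.2 to 33.4 FPM over the group means), was higher in 12w-res than at 6w+dox (0.79, SE 0.19, adjusted p 0.00523), at 63.2 to 69.04 against 24.7 to 56.8 FPM. Id4, at 14.5 to 39.6 FPM, passed in none. Tgfbi, a TGF-beta-induced matrix protein, fell from 14.9 to 18.05 FPM at 6w+dox to 7.93 to 13.2 at 12w+dox (-0.60, SE 0.17, adjusted p 0.0227) and was at 15.5 to 19.8 FPM in 12w-res (0.80, SE 0.15, adjusted p 9.04e-04 against 12w+dox). With totals of reads the difference from 12w+dox was 0.17 for Tgfbi (adjusted p 0.430) and 0.11 for Id1 (adjusted p 0.644). The fall of Tgfbi missed 0.05 without 12w+dox replicate 2 or 6w+dox replicate 1 or 2 (0.0629, 0.0838 and 0.0523). With totals of reads that fall was -0.29 (adjusted p 0.307).

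**Figure D3:**
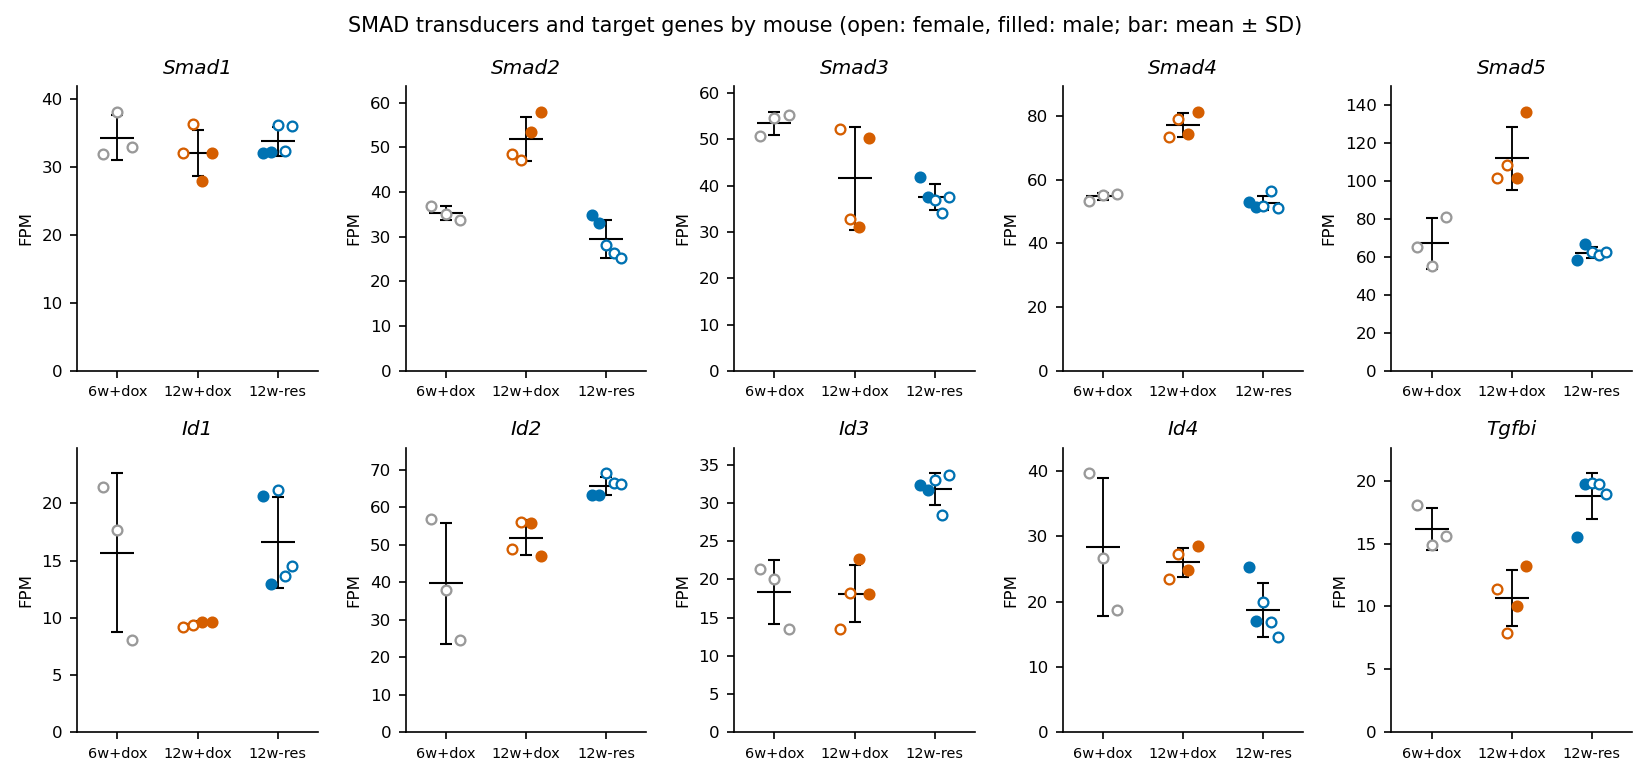
FPM of 5 SMAD transducers and 5 target genes in the 12 mice of the long-term experiment, with 1 point per mouse, open for females and filled for males, and bars for the mean ± SD of each group. Smad2, Smad4 and Smad5 are highest in all 4 mice at 12w+dox, and Id3 lies between 28.4 and 33.7 FPM in 12w-res against 13.6 to 22.6 in the dox groups; with totals of reads the Id3 difference from 12w+dox was 0.17 on the log2 scale.

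Markers of blood vessels and connective tissue differed between the same groups as the receptors and Fstl1. The 6 endothelial markers (Pecam1, Cdh5, Kdr, Emcn, Plvap and Tek) summed to 174 to 227 FPM at 6w+dox, 58.6 to 125 at 12w+dox and 189 to 262 in 12w-res, and 5 of 6 were called higher in 12w-res than at 12w+dox. All 8 fibroblast and pericyte markers, Col1a1 and Pdgfrb among them, were called higher too, with sums of 348 to 374, 171 to 533 and 964 to 1568 FPM. The 7 macrophage markers summed to 96.4 to 138, 99.9 to 131 and 151 to 222 FPM, and in 12w-res against 12w+dox all 7 were higher at an adjusted p under 0.05, with a median log2 fold change of 0.70, below the fold limit in each. These marker results are given with the size factors only. Totals of reads, which moved the median of all genes in this comparison by -0.61, were not reported for the markers. None of these markers was at 0 in all mice of a group. Within 12w+dox, replicates 1 and 4 had the higher endothelial sums (125 and 108 FPM) and fibroblast sums (533 and 444 FPM), and replicates 2 and 3 the lower ones (58.6 and 63.7, 251.4 and 171 FPM). Of the 44 members, 24 (54.5%) were higher in both mice 1 and 4 than in both others, against 23.5% of all genes, and 2 (4.55%, Id2 and Id3) were lower, against 25.3%. The pairs follow the marker sums of the same mice, so the split was chosen from these data, and it sets 2 mice against 2. Its shares describe these mice and are not a test of a cause. Members that move together within this split are not separate observations. The 24 held members that were higher in 12w-res than at 12w+dox, such as Tgfbr2, Fstl1 and Acvrl1, and members that were lower there, Acvr1b and Acvr2b. The part of these cells in the levels of the members was not tested. The sums by mouse are in the plot of marker levels.

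**Figure D4:**
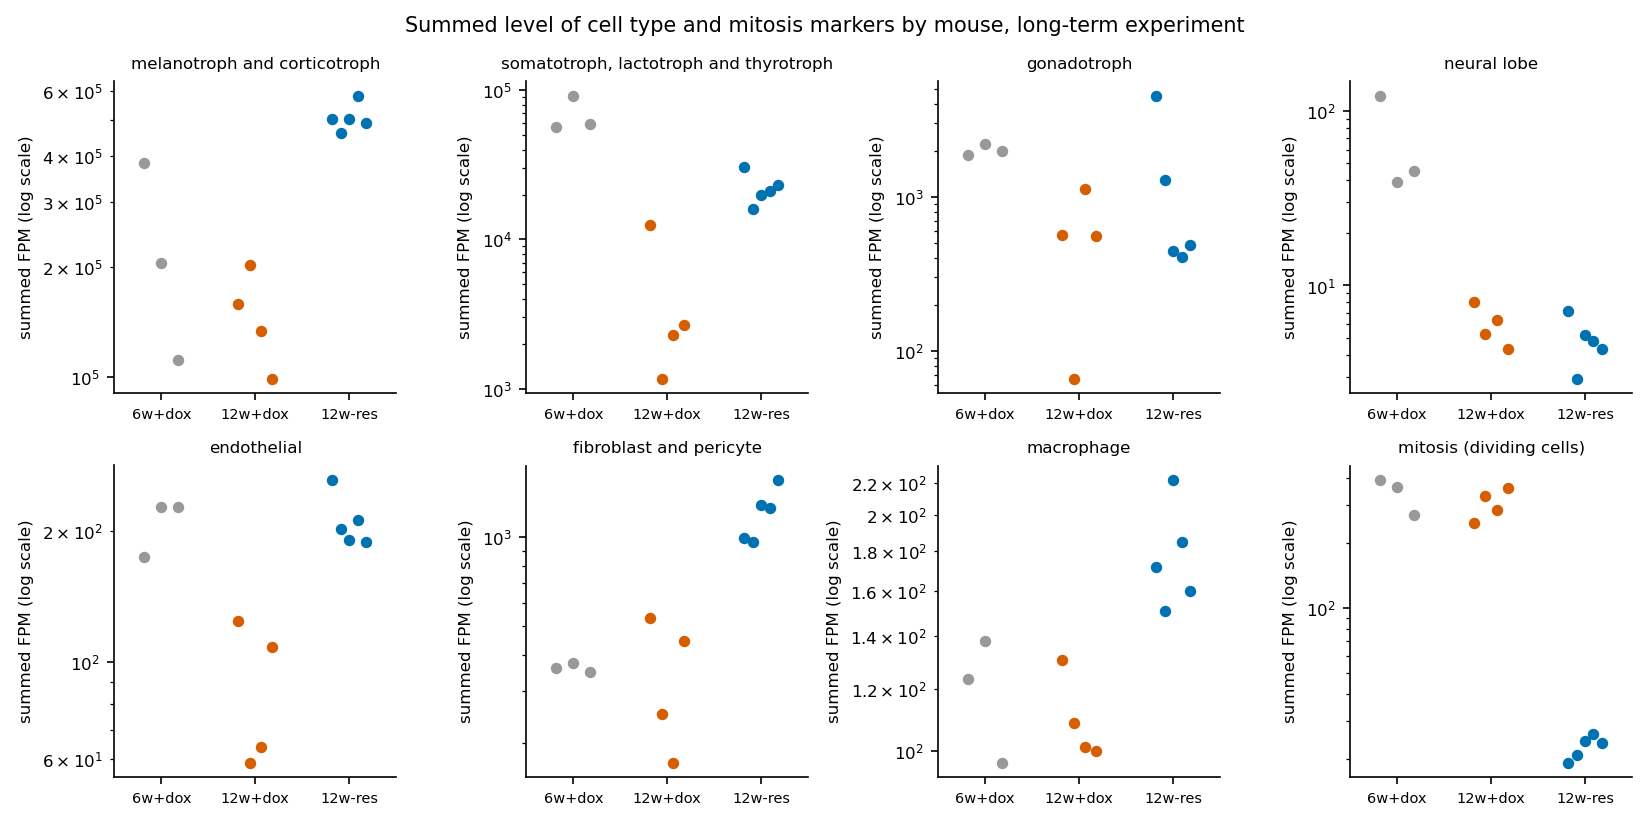
Summed FPM, on a log axis, of 8 marker lists in each mouse of the long-term experiment, with 1 point per mouse. Endothelial sums were 58.6 to 125 FPM in the 4 mice at 12w+dox and at least 174 in all other mice, fibroblast and pericyte sums were 964 to 1568 in 12w-res only, and mitosis sums were 19.0 to 26.1 in 12w-res against at least 248 on dox.

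Against 6w+dox, 3 members were called higher in 12w-res and 2 lower, where 5.81% and 5.82% of all genes were. The 3 were Fstl1, Inhba and Fstl3, and the 2 were Nog and Acvr1c. At an adjusted p under 0.05 alone 12 were higher and 3 lower, against 17% and 16.8% of all genes. With totals of reads 6 of the 12 higher ones and all 3 lower ones passed this limit. Acvrl1, Chrd, Fst, Tgfb2, Tgfb3 and Tgfbr3 did not. The groups did not overlap for 12 members (27.3%), against 32.7% of all genes, and the medians were 0.11 for the members and -0.02 for all genes. With totals of reads, 1 member was called higher (Fstl1) and 2 lower (Nog and Acvr1c). Without 6w+dox replicate 3, 7 were called higher and 1 lower. Shares of all genes called in these refits were not computed. The comparisons of the long-term experiment share their groups, so that a gene low at 12w+dox enters both comparisons with that group.

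Of 77 further genes of the pathway, 54 were in the long-term table. The list was written from general knowledge but with earlier results of these data known. Its counts beside the shares of all genes are therefore a description and not a test. From 6w+dox to 12w+dox, 3 of the 54 were called higher and 6 lower, where 3.15% and 4.04% of all genes were. The higher ones were Itgb8, an integrin subunit that activates latent TGF-beta (log2 fold change 2.45), the BMP co-receptor gene Rgmb (1.45) and the BMP antagonist gene Nbl1 (1.15). The lower ones were Dcn (-1.62), Fstl5 (-1.50), Rgma (-1.40), Ltbp1 (-1.18), Eng (-1.18) and Tgif1 (-1.10). In 12w-res against 12w+dox, 13 were called higher and 1 lower, Chrdl1 (-1.07), where 6.24% and 5.04% of all genes were. The 13 held the latent TGF-beta binding or presenting genes Ltbp2 (2.57), Lrrc32 (1.74) and Ltbp1 (1.69), Thbs1 (2.09) and Thbs2 (1.19), whose proteins belong to the thrombospondins, the endothelial co-receptor gene Eng (1.49), and the TGF-beta-responsive genes Ctgf (1.29) and Pmepa1 (1.09). They also held Gdf15 (1.36), Gdf10 (1.23) and Dcn (1.18). Against 6w+dox 11 were called higher and 2 lower, where 5.81% and 5.82% of all genes were. Among those higher were Ltbp2 (3.34), Thbs1 (2.57), Gdf10 (2.05), Lrrc32 (1.73), Itgb8 (1.55), Thbs2 (1.53), Nbl1 (1.39), Tll1 (1.25), Ctgf (1.22) and Crim1 (1.11). The lower ones were Chrdl1 (-1.68) and Fstl5 (-1.48). The median log2 fold change of the 54 was 0.02, 0.29 and 0.33 in the 3 comparisons in this order, beside -0.01, -0.004 and -0.02 for all genes. With totals of reads, an alternative added after the values were seen, 6 were called higher and 3 lower from 6w+dox to 12w+dox, 4 and 6 in 12w-res against 12w+dox and 9 and 4 against 6w+dox. The share of all genes called that way was not computed.

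In the first days after dox withdrawal from 16-week tumors no member was called. Of the 40 members measured, 0 passed an adjusted p of 0.05 in limma at 1, 3 or 5 days against 16w+dox or between 5 days and 1 day, where 0.1%, 0.358%, 0.509% and 0.0143% of the 13958 genes tested passed and 0.043%, 0.129%, 0.193% and 0.0143% were called. At an unadjusted p under 0.05, 10 members differed at 1 day (1 higher and 9 lower), 6 at 3 days (3 and 3), 10 at 5 days (1 and 9) and 0 between 5 days and 1 day, against 13.1%, 16.6%, 13.5% and 6.33% of all genes. The smallest adjusted p was 0.136, 0.0794, 0.101 and 0.766 in the same order. The groups did not overlap for 8, 8, 13 and 2 of the 40 (20%, 20%, 32.5% and 5%), against 11.2%, 21.6%, 19.3% and 7.8% of all genes. The 3 withdrawal groups share the 16w+dox mice. By edgeR 0 members were called in the 4 comparisons, and by DESeq2 1 was, Bmp7 at 3 days.

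Bmp7, a BMP ligand, was singled out after its values were seen. Its FPM was 1.30, 0.267 and 1.40 in the 16w+dox mice, 3.37, 3.26 and 2.26 in the 3d-dox mice, 1.11, 1.59, 1.17 and 0.655 in the 1d-dox mice and 0.925, 1.48 and 0.872 in the 5d-dox mice. The 3d-dox mice lay above the other 10. The log2 fold change at 3 days was 1.31 (SE 0.31, adjusted p 0.0794 in limma, 0.117 in edgeR and 0.0225 in DESeq2), and without 16w+dox replicate 2 it was 0.89. Fstl1 was at 5.14, 8.42 and 5.23 FPM at 16w+dox and 9.25, 5.89 and 6.20 at 3d-dox, the male groups, and at 3.56, 3.91, 4.49 and 3.88 in the 1d-dox and 3.03, 4.96 and 2.59 in the 5d-dox mice, the female groups. Tgfbr2 was at 4.07, 5.32 and 4.24 and at 7.86, 4.22 and 5.87 FPM in the male groups and at 3.38, 3.21, 2.72 and 2.22 and at 2.22, 2.78 and 2.45 in the female groups. Every female lay below every male for 3 of the 40 members, Fstl1, Tgfbr2 and Smad3, and above every male for 0. The same count was not made over all genes, so it cannot be read as a trait of the members. Nog was at 0.324, 0.962 and 0.230 FPM at 16w+dox, at 0.326, 0.143 and 0.926 at 3d-dox, at 0, 0.214, 0.0748 and 0.187 in the 1d-dox mice and at 0.140, 0.0519 and 0.0563 in the 5d-dox mice, levels at which a single read is worth 0.0204 to 0.0305 FPM.

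Sex and time off dox cannot be told apart at 1 and 5 days, because all of those mice were female and the 16w+dox mice male. Markers of other cells differed along the same line. The endothelial sum was 23.6 to 41.3 FPM at 16w+dox, 22.5 to 41.9 at 3d-dox, 13.2 to 17.03 at 1d-dox and 10.6 to 14.5 at 5d-dox. Fibroblast and pericyte markers summed to 107 to 143, 78.6 to 161, 49.7 to 72.4 and 46.6 to 82.0 FPM and gonadotroph markers to 17.2 to 84.6, 37.6 to 128, 1.56 to 6.31 and 2.80 to 4.30 FPM in the same order. Their part in the levels of the members was not tested. Over the 13 mice, Smad4 was at 31.4 to 37.6 FPM, Smad5 at 31.8 to 39.9, Smad2 at 13.2 to 19.2 and Smad1 at 11.8 to 16.7. Smad3 was at 12.03 to 15.02 FPM in the male groups and 9.77 to 11.9 in the female groups. Over the 40 members the SE of the log2 fold change at 5 days ranged from 0.07 to 0.36. Id3 was at 1.79 to 2.99 FPM and Inhbb at 2.73 to 7.48 FPM with overlapping groups. Of the further pathway genes 44 were tested, 0 were called in any of the 4 comparisons and 1 passed an adjusted p of 0.05, on the lower side at 5 days.

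**Figure D5:**
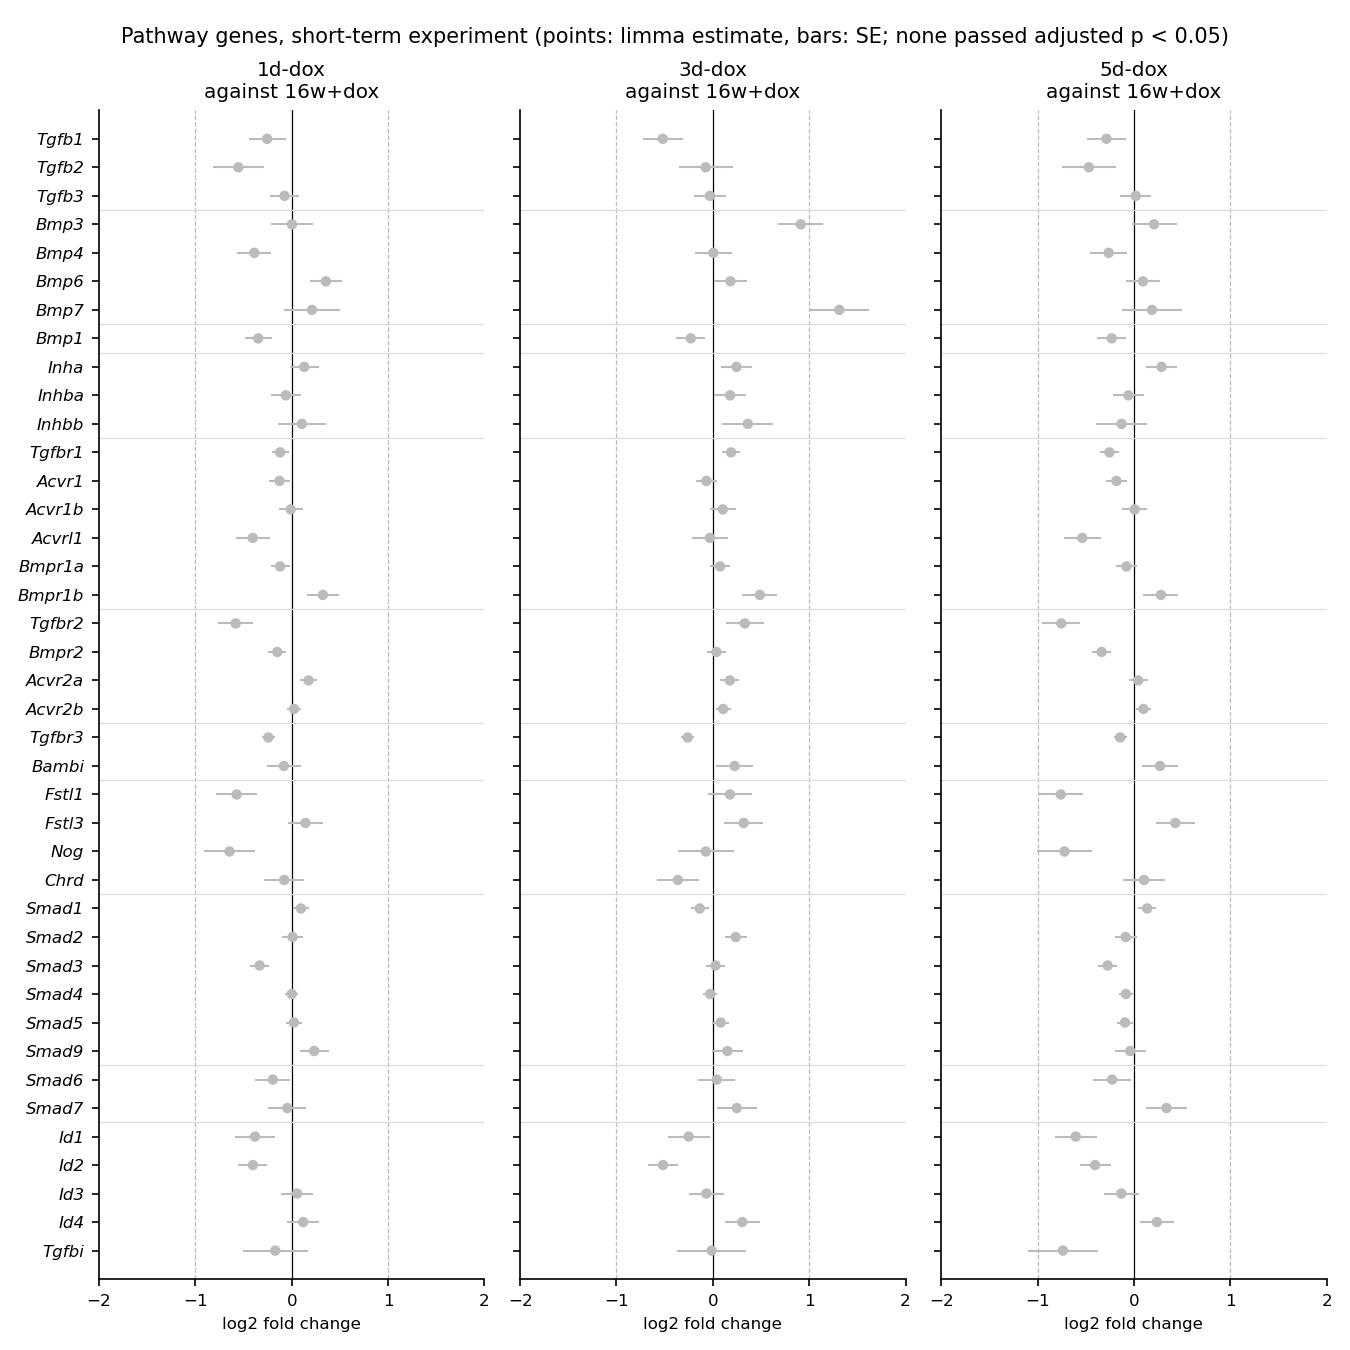
Log2 fold change of each of the 40 members measured in the short-term experiment at 1, 3 and 5 days after dox withdrawal, each against 16w+dox, ordered by role. Points are limma estimates on log2(FPM + 0.5) and bars their SE. No member passed an adjusted p of 0.05, and the point farthest from 0 is Bmp7 at 3 days (1.31).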

How the data were processed

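Pituitary RNA of 25 shRb mice was sequenced by the authors in paired-end runs, and reads were mapped to mm10 with STAR at default settings. The authors deposited, for each RefSeq gene and mouse, a signal scaled by size factors (FPM). The tool that counted reads and its use of strand are not given in the sources used here, so reads shared with overlapping or antisense genes cannot be told apart. All values were whole multiples of 1 read (100% within 0.1 read), and reads were recovered from them. Lines that name no gene were left out (2 in the long-term table, 4 in the short-term table, which held 68.8% to 75.0% of a short-term library). 0 per-sample columns were left unused.

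All groups of an experiment were fitted together in limma 3.58.1 under R 4.3.3, using log2(FPM + 0.5), empirical Bayes moderation with an intensity trend, and genes that reached 10 reads in over 50% of the mice of any group. Alternatives were edgeR 4.0.16 and DESeq2 1.42.0 on the recovered reads, other scalings, pseudocounts of 0.1 and 1, other filters, sex, a block and leaving out each mouse. The fits were also run on simulated reads, with changes larger than most reported here and in well-read genes only. That run does not bear on smaller changes or on low genes. Replicates are separate mice, and all replicate pairs differed by more than sampling noise. Every member present was named; fold changes are printed for members with an adjusted p under 0.05, and values by mouse for called members and a few per role. Levels per kilobase used the longest GENCODE transcript. The members, the further pathway genes and the marker lists were chosen with earlier results of these data known. Some of the called further pathway genes are counted but not reported here by name.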

Additional observations from a re-analysis of the deposited data

Results flagged for a closer look

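In groups of 4 or 5 mice, the highest or lowest mouse was compared with the rest of its group by Dixon's ratio. Of 128 pairs of a member and a group tested, 10 held a mouse beyond the 95% limit; chance alone flags about 5% of pairs. In 12w-res, replicate 1 was high for Bmp7 (17.003 FPM, the next mouse at 5.92) and Bmp3 (2.70 FPM, the next at 0.768) and low for Tgfbi (15.5 FPM, the next at 18.9). This mouse also had the highest gonadotroph marker sum of its group, 4540 FPM against at most 1290 in the others. Replicate 4 was high for Tgfb1 (31.0 FPM, the next at 20.9), replicate 5 was low for Inhbb (26.3 FPM, the next at 30.3), and replicate 2 was low for Acvr1 (27.2 FPM, the next at 30.7). At 1d-dox, replicate 2 was low for Bmpr1a (21.96 FPM, the next at 27.1) and Smad2 (14.1 FPM, the next at 16.4), replicate 1 was high for Smad7 (6.63 FPM, the next at 4.40), and replicate 3 was high for Id1 (1.17 FPM, the next at 0.631). The higher level of Inhbb and Acvr1 in 12w-res than at 12w+dox passed the test with and without each mouse, but not with totals of reads (0.18 with an adjusted p of 0.395 for Inhbb, and -0.12 with 0.413 for Acvr1).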

How the results depend on the processing

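Of 992 refits of single members, 811 kept the direction and the side of the threshold, 179 no longer passed (62 lost a call and 117 missed an adjusted p of 0.05 in members that passed it without being called), 1 gained a call (Bmp7 in DESeq2) and 1 changed direction, Acvr1 in 12w-res against 12w+dox with totals of reads (-0.12). The 5 members called at 12w+dox against 6w+dox became 14 without a minimum fold change, 3 with at least 10 reads in every sample, 1 among females and 3 with only the groups compared, and 2 to 6 with 1 mouse left out (3 without 12w+dox replicate 2 and 2 without 6w+dox replicate 2). The 7 called in 12w-res against 12w+dox became 20 without a minimum fold change, 4 with a pseudocount of 1 and 3 among females, and 3 to 8 with 1 mouse left out (4 and 3 without 12w+dox replicate 2 or 3). The 5 called in 12w-res against 6w+dox became 15 without a minimum fold change, 3 with totals of reads, 2 with a pseudocount of 1 and 2 with at least 10 reads in every sample, and 4 to 8 with 1 mouse left out (8 without 6w+dox replicate 3). At 3 days DESeq2 called 1 member where limma called 0. Shares of all genes called in the refits were not computed. Totals of reads moved the median of all genes by 0.29, -0.61 and -0.33 on the log2 scale in the long-term comparisons and by 0.14 at 3 days, and the members' medians to 0.26, -0.27, -0.22 and 0.23. With at least 10 reads in every sample, the called members Acvr1c, Bmp2, Fstl3 and Inhba were filtered out and not tested, so they failed no test there. The cause of the other changes was not tested, beyond fewer mice where mice were left out.

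Replicate numbers did not pair the mice: same-numbered deviations correlated between -0.165 and 0.237 in the long-term experiment (1 of 10 pairs over 0.1) and between -0.208 and 0.168 in the short-term experiment (3 of 18). With the replicate block, 2 members were called at 12w+dox against 6w+dox.

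Depth limited the lowest members: Inhba was at 1 to 19 reads in the 12w+dox libraries, and its log2 fold change in 12w-res against 6w+dox ranged from 0.75 to 2.58 over the alternatives.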
